A study of Mus musculus with 3 samples.

Results

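The TRPM channels and the mucolipins are cation channels of the transient receptor potential (TRP) superfamily, and 10 of their genes were followed in mouse melanocytes. These are *Trpm1* to *Trpm8*, which make up the TRPM family, and the mucolipins *Mcoln1* and *Mcoln3*. The genes were chosen by family and symbol, and all 10 were found among the 22698 Ensembl genes of the processed files. RNA-seq came from melan-a cells, an immortalised line of pigmented mouse melanocytes, grown without any experimental treatment in 3 replicates that carry the numbers 1, 3 and 4. All replicates share the C57BL/6J strain background, the label Ink4a-ARF-/- for the mice of origin, and a medium of RPMI with 10% fetal bovine serum, 200 nM 12-O-tetradecanoylphorbol 13-acetate and 200 pM cholera toxin at 37°C. The line is a single immortalised model kept in a phorbol ester and cholera toxin, and the data hold 1 group, so every comparison below is between genes of the same libraries. The series describes the replicates as biological, but nothing says whether they came from separate cultures, so the SDs may be partly technical.

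TRPM channels are named for melastatin, the product of *Trpm1*, whose transcript was noted because it falls in aggressive melanoma. TRPM1 is also the cation channel that opens in retinal ON bipolar cells when their glutamate receptor falls silent. The other TRPM proteins conduct magnesium and calcium with an attached kinase (TRPM6, TRPM7), depolarise cells in response to internal calcium (TRPM4, TRPM5), or sense ADP-ribose (TRPM2), steroid and heat (TRPM3) or cold (TRPM8). Mucolipins release calcium from endosomes and lysosomes, organelles that share their origin and much of their machinery with melanosomes. A dominant mutation of *Mcoln3* causes the varitint-waddler mouse, which is deaf and has a diluted coat.

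*Trpm1* and *Trpm3* each carry a microRNA gene in an intron, and these microRNAs are shown because they tie the most studied TRPM gene of melanocytes to a relative. On mm9, which is the NCBIM37 assembly, the miR-211 hairpin lies on the plus strand of chromosome 7 at chr7:71350692-71350797, inside the intron of *Trpm1* between exons that end at 71349479 and begin at 71353162. The miR-204 hairpin lies on the plus strand of chromosome 19 at chr19:22825095-22825162, inside the intron of *Trpm3* between 22824335 and 22841121. The mature sequences below are those of RefSeq and each matched the mm9 genome at 1 place. Capitals mark the seed, bases 2 to 8, through which a microRNA pairs with its targets.
miR-211-5p: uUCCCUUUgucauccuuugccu
miR-204-5p: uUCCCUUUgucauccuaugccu
miR-211-3p: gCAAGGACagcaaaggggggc
miR-204-3p: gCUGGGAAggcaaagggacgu
The 5p arms had the same seed and were the same at 21 of 22 bases, with the single difference U17A, counted from the 5′ end with the base of miR-211-5p first. The 3p arms had different seeds. Mature microRNAs are too short for this library type, and neither microRNA gene was among the genes of the files, so only the host transcripts can be read here.

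Upstream sequence of the members was read from the promoter windows of RefSeq, located on mm9 by their sequence. Windows were available for 9 members, with 11 start sites. *Trpm4* had none. Each window was searched on both strands for CACGTG and CATGTG, E-boxes bound by the melanocyte factor MITF, and for GCCNNNGGC and GCCNNNGGG, the kind of palindrome and near-palindrome bound by TFAP2 factors. The TFAP2A consensus used in the study, GCCNNNGG, is shorter and less strict and was not searched. A window without a match here can therefore still hold that consensus. In the 250 bases upstream of 32851 RefSeq start sites, the shares with a match were 6.02% for CACGTG, 12.3% for CATGTG, 13.7% for GCCNNNGGC and 23.2% for GCCNNNGGG. A match describes letters and not occupancy. The sequences below stop where an annotated exon begins, run 5′ to 3′ along the gene, and show matches in capitals. They are those of *Trpm1*, whose human promoter the study dissected for MITF and TFAP2 sites, and of the members with the highest levels.
Trpm1 start 1, chr7:71298471-71298720, plus strand: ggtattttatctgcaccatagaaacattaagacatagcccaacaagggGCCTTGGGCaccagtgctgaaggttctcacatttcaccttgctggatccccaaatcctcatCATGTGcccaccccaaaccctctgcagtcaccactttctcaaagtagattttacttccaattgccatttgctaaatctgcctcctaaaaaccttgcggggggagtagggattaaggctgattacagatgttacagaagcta
Trpm1 start 2, chr7:71330095-71330266, plus strand: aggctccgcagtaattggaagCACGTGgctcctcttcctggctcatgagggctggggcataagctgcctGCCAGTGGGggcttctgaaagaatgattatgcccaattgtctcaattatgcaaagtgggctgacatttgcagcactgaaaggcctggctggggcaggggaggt
Mcoln1, chr8:3500269-3500456, plus strand: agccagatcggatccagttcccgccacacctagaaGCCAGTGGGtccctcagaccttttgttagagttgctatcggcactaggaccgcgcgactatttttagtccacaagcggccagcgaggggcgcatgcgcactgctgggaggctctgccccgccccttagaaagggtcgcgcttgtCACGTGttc
Mcoln3, chr3:145784505-145784635, plus strand: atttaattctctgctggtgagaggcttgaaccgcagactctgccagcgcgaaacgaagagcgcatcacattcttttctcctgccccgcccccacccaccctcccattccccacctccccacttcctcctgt
Trpm7, chr2:126701998-126702247, minus strand: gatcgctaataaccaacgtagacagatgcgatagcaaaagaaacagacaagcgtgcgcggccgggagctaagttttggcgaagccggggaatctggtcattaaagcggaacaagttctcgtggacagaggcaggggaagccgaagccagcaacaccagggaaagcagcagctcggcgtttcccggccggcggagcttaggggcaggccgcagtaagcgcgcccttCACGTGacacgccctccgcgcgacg

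Both start sites of *Trpm1* had an E-box and a TFAP2-type match in their window. At start 1 these were CATGTG at -141 to -136 and GCCTTGGGC at -202 to -194, counted upstream from the start site. At start 2 they were CACGTG at -229 to -224 and GCCAGTGGG at -181 to -173. The share of all windows that hold both kinds of match was not computed, and *Mcoln1* and *Trpm6* held both as well. *Mcoln1* had CACGTG at -71 to -66 and again at -45 to -40, the latter inside an annotated exon, and GCCAGTGGG at -215 to -207. *Trpm7* had CACGTG at -25 to -20. *Mcoln3*, the member with the highest level, had no match to the 4 motifs in its 250-base window, and neither had *Trpm3*, *Trpm5* or *Trpm8*. The windows of *Mcoln3* and *Trpm8* belong to start sites inside the annotated genes, at 145784755 and 90203310. These genes begin at 145780423 and 90174236, and the sequence upstream of there was not searched. Start 2 of *Trpm1*, at 71330345, and start 2 of *Trpm3*, at 22522698, also lie inside their genes, as does the start of *Mcoln1*, at 3500519. That of *Trpm2*, at 77432617, does so too, and sequence upstream of its gene, which begins at 77433308 on the minus strand, was not searched. Of the *Mcoln3* window, 119 bases were annotated exon. *Trpm2* and *Trpm6*, which are near or at 0 in these cells, did have matches, CATGTG on the minus strand at -80 to -75 of *Trpm2*, and CATGTG at -196 to -191 with GCCCAGGGC at -68 to -60 of *Trpm6*. In the windows searched, members with and without a match to these motifs were thus found at both ends of the order of levels. The paper measured binding and lists *MCOLN3*, *TRPM1* and *TRPM7* with both TFAP2A and MITF peaks at active chromatin. For *MCOLN3* the TFAP2A peak was in mouse and not in human melanocytes. For *TRPM1* it reports a TFAP2A peak near the promoter in both species. Its rule for assigning peaks to genes reaches well beyond the windows searched here.

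The windows also differed in CpG content, given as the observed number of CpG over that expected from the base composition. It was 1.15 for *Trpm7* and 0.89 for *Mcoln1*, against a median of 0.37 over all 32851 windows, of which 34.0% were above 0.6. *Mcoln3* was at 0.52. Both *Trpm1* windows were CpG-poor, at 0.08 for start 1 and 0.2 for start 2, and *Trpm8* at 0.09 and *Trpm5* at 0.23 were similar. Of all windows, 42.7% were below 0.3.

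Levels are the deposited FPKM values, which relate the reads of a gene to its length and to the depth of its library. From genes with a single transcript the scaled library sizes were estimated at 47000000 to 66300000 reads, so that 3 reads on a gene of 1 kb came to 0.045 to 0.064 FPKM. These sizes include the TMM scaling of the deposited values and need not equal the reads sequenced. The cells carried the melanocyte markers, 10 of 11 of them at 1 FPKM or more in all 3 replicates, with a summed level of 5835.72 to 6676.95 FPKM. *Kit* was the exception with a mean of 0.68 FPKM. Keratinocyte, macrophage, endothelial and neuron markers had no gene at 1 FPKM or more in all replicates. Their summed levels were at most 0.7, 1.61, 0.01 and 0.01 FPKM, and *Krt1*, *Ptprc*, *Snap25* and *Syt1* were listed at 0 in all replicates. Of the fibroblast markers 1 of 4, *Col1a1*, passed 1 FPKM, with sums of 1.56 to 1.93 FPKM.

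The members ranged from a mean of 87.0 FPKM to values listed at 0. Of the 10, 4 had 1 FPKM or more in all 3 replicates, namely *Mcoln3*, *Mcoln1*, *Trpm7* and *Trpm4*. This share lay near that of all genes, 44.1%. A further 3, *Trpm2*, *Trpm5* and *Trpm8*, were listed at 0 throughout, as were 31.4% of all genes. At 0.5 FPKM or more *Trpm1* was added, which made 5 members against 47.0% of all genes. With a minimum of 3 reads in each replicate in place of 1 FPKM, 6 members passed, *Trpm1* and *Trpm3* in addition to those at 1 FPKM, against 57.7% of the annotated genes. The median of the members' means was 0.353 FPKM and that of all genes 0.277 FPKM. The mucolipins made up most of the members' summed FPKM. *Mcoln3* held 68.3% ± 2.3 of it and *Mcoln1* 23.3% ± 3.6, while the 8 TRPM genes together held 8.39% ± 1.6 (SD, n = 3).

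**Figure D1:**
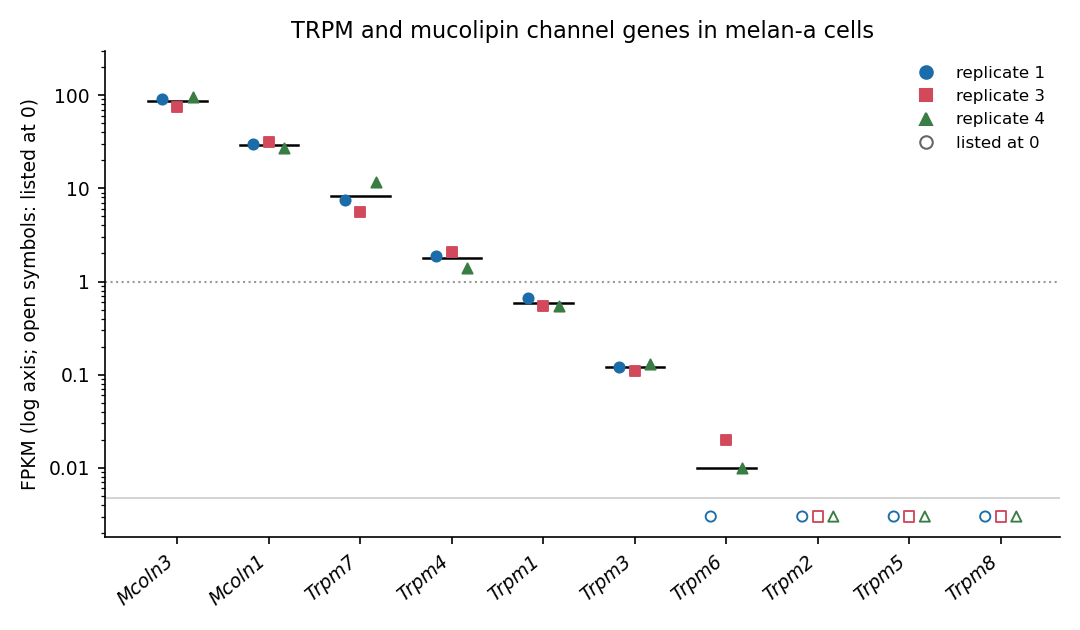
FPKM of the 10 members in each replicate (log axis), ordered by mean, with a line at each mean and a dotted line at 1 FPKM. Open symbols below the grey line stand for values listed at 0. The replicates of a member lie close together beside the steps between members, and among the members above 0 in every replicate *Trpm7* has the widest relative spread, from 5.58 to 11.75 FPKM.

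*Mcoln3*, which encodes the endosomal mucolipin TRPML3, had the highest level of all members. It lies on the plus strand at chr3:145780423-145804770 and had 90.71, 75.34 and 94.89 FPKM in replicates 1, 3 and 4. Replicate 3 was the lowest and the other replicates were close to each other. The mean was 87.0 ± 10 FPKM (SD, n = 3), which placed *Mcoln3* at rank 713 of 22698 genes and within the highest 3.1%. At the estimated depths this level rested on 12245 to 21755 reads. Its level was above that of 6 of 11 melanocyte markers. The ratio to *Tyr*, which encodes tyrosinase, was 1.25, 1.27 and 1.27 in replicates 1, 3 and 4. *Mcoln3* was also higher than *Slc45a2*, a melanosomal transporter, in 3 of 3 replicates, by a mean ratio of 1.34 ± 0.23.

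*Mcoln1* encodes TRPML1, the lysosomal channel whose loss causes mucolipidosis type IV, and it was the next in order. It lies on the plus strand at chr8:3500457-3515232. Its values were 29.68, 31.1 and 27.14 FPKM in replicates 1, 3 and 4, which is the narrowest relative spread of the members above 0 in every replicate, with a coefficient of variation of 6.8%. The mean of 29.3 ± 2.0 FPKM (SD, n = 3) came to rank 2315. *Mcoln3* exceeded *Mcoln1* in 3 of 3 replicates, by 3.06, 2.42 and 3.5 times. The mean difference in log2(FPKM + 0.1) was 1.56 ± 0.27, larger than its spread over replicates. In an exact permutation test by sign flips (2-sided) p = 0.25 is the smallest value that 3 replicates allow, and every pair of members below reached it, so the tests cannot pass a threshold of 0.05 and the order rests on the replicates' agreement in direction.

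The remaining mucolipin gene, *Mcoln2*, starts 8026 bp downstream of the end of *Mcoln3* on the same chromosome. The neighbours differed widely, since *Mcoln2* had 1.2, 1.12 and 1.51 FPKM and *Mcoln3* was 75.6, 67.3 and 62.8 times higher in replicates 1, 3 and 4. Mucolipins are opened by the endolysosomal lipid PI(3,5)P2, which is made by the kinase PIKFYVE with its partners VAC14 and FIG4. Of 7 genes for this lipid and for proteins that respond to lysosomal calcium, 7 were at 1 FPKM or more in all replicates, around a median of 10.4 FPKM. *Vac14* had a mean of 23.6 ± 3.3 FPKM and *Fig4* 8.76 ± 0.43. *Pikfyve* was the lowest of the list at 2.43, 1.72 and 3.81 FPKM. *Pdcd6*, the calcium sensor ALG-2, had 30.2 ± 2.5 FPKM, and *Ppp3r1*, the regulatory subunit of the phosphatase calcineurin, 30.6 ± 1.2 (SD, n = 3).

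*Trpm7* was the highest TRPM gene, and it alone made up 73.5%, 67.1% and 85.0% of the summed TRPM level in replicates 1, 3 and 4. It encodes a channel for magnesium, calcium and zinc that ends in a protein kinase, and lies on the minus strand at chr2:126617301-126701966. Its values were 7.43, 5.58 and 11.75 FPKM, with replicate 4 the highest and replicate 3 the lowest. The mean was 8.25 ± 3.2 FPKM (SD, n = 3), at rank 5963. Its rank ran from 4810 in replicate 4 to 6945 in replicate 3. *Mcoln1* was above *Trpm7* in 3 of 3 replicates, with a mean log2 difference of 1.88 ± 0.63.

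*Trpm6*, the other channel with a kinase, known for magnesium uptake in gut and kidney, was at the edge of detection. It lies on the plus strand at chr19:18824473-18967000 and was listed at 0 in replicate 1, 0.02 FPKM in replicate 3 and 0.01 FPKM in replicate 4, about 6 and 4 reads for the latter. A listed 0 in replicate 1 can hide up to 1.8 reads, because the values are rounded to 2 decimals. *Trpm7* was above *Trpm6* in 3 of 3 replicates by 6.18 ± 0.59 in log2(FPKM + 0.1), a size that depends on the pseudocount because *Trpm6* is near 0. Among 9 other genes for magnesium transport, 8 were at 1 FPKM or more in all replicates, around a list median of 4.29 FPKM. The transporter *Magt1* had 13.4 ± 3.0 FPKM, the exporter *Slc41a1* 12.1 ± 1.8 and the mitochondrial channel *Mrs2* 10.6 ± 0.37 (SD, n = 3), each with a mean above that of *Trpm7*. *Cnnm1* was the member of that list under 1 FPKM.

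*Trpm4* and *Trpm5* encode channels for sodium and potassium that open when internal calcium rises, and reads were found for *Trpm4* alone. It lies on the minus strand at chr7:52558002-52589150 and had 1.89, 2.05 and 1.4 FPKM in replicates 1, 3 and 4. Replicate 4 was the lowest, the opposite of *Trpm7*. The mean of 1.78 ± 0.34 FPKM (SD, n = 3) came to rank 9522. *Trpm7* was above *Trpm4* by a mean log2 difference of 2.1 ± 0.81, and by 3.93, 2.72 and 8.39 times in the single replicates. *Trpm5*, the taste cell channel, lies on the minus strand at chr7:150255058-150280547 and was listed at 0 in all replicates, where up to 1.7, 1.5 and 2.1 reads could be hidden by rounding. TRPM4 has been linked to sulfonylurea receptors, whose genes were at 0.00333 FPKM for *Abcc8* and listed at 0 in all replicates for *Abcc9*.

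*Trpm1* lies on the plus strand at chr7:71298721-71414643 and its mean of 0.587 ± 0.072 FPKM (SD, n = 3) came to rank 10738. This mean was lower than that of any of the 11 melanocyte markers. Against *Kit*, the lowest marker with 0.67, 0.59 and 0.78 FPKM, the difference was within the spread, with equal values of 0.67 FPKM in replicate 1. The level was well above the limit of detection, with 410, 294 and 407 reads at the estimated depths. The paper describes *TRPM1* as highly expressed in melanocytes and gives no level with that statement. The value here covers RNA of the melan-a line only. *Trpm4* was higher than *Trpm1* in 3 of 3 replicates, by 2.82, 3.73 and 2.59 times. *Trpm7* was 11.1, 10.1 and 21.8 times higher than *Trpm1*, and *Mcoln1* 44.3, 56.5 and 50.3 times. The level of *Trpm1* also depends on the length by which reads are divided more than that of any other member above 0. The 18 annotated transcripts join to 11372 bases of exon while the longest has 5690 and the shortest 274. Divided by the longest transcript the mean became 1.17 FPKM, which is above 1 FPKM but still below *Trpm4* with 1.98 FPKM computed likewise. For 27 values of genes with several transcripts, the joined exons gave reads nearest to whole numbers, at a mean distance of 0.142 reads against 0.228 for the longest transcript.

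In the retina TRPM1 is held closed by the receptor mGluR6 through its G protein, and further proteins take part in this cascade. Of the 8 genes listed for that cascade, 7 were matched in the files and 2 were at 1 FPKM or more in all replicates, *Gnao1*, the G protein subunit, with a mean of 15.5 ± 2.4 FPKM and *Gnb5* with 15.3 ± 1.6 (SD, n = 3). The receptor gene *Grm6* and its partners *Gpr179*, *Nyx* and *Rgs7* were listed at 0 in all replicates. *Rgs11* had a mean of 0.14 FPKM. The factors for which the *Trpm1* windows were searched were themselves expressed, *Mitf* at 22.1 ± 4.7 FPKM, *Tfap2a* at 37.2 ± 1.5 and *Tfap2b* at 7.52 ± 1.2 (SD, n = 3). *Trpm1* stood at a ratio of 0.0273 ± 0.0062 to *Mitf* and 0.0405 ± 0.0041 to *Oca2*, a pigmentation gene with a mean of 14.5 FPKM.

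*Trpm3*, the host of miR-204, was lower again. It lies on the plus strand at chr19:22213609-23064374 and had 0.12, 0.11 and 0.13 FPKM in replicates 1, 3 and 4, about 53, 43 and 71 reads. The replicates were close, and each was above the level of 3 reads on this gene. *Trpm1* exceeded *Trpm3* in 3 of 3 replicates by 5.58, 5.0 and 4.15 times. The mean difference in log2(FPKM + 0.1) was 1.64 ± 0.17, which is smaller than these ratios because the pseudocount is close to the level of *Trpm3*. With a pseudocount of 1 it was 0.5. *Trpm3* was in turn above *Trpm6* in 3 of 3 replicates, by 1.0 ± 0.17 in log2(FPKM + 0.1), a size that depends on the pseudocount. The ratios in FPKM were 5.5 and 13.0 in replicates 3 and 4. In replicate 1 *Trpm6* was listed at 0, so no ratio could be formed.

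*Trpm2* and *Trpm8* were listed at 0 in all replicates. *Trpm2*, on the minus strand at chr10:77370467-77433308, encodes a channel opened by ADP-ribose under oxidative stress. Its joined exons are the longest of the members, and rounding could hide 3.3, 2.9 and 4.1 reads in replicates 1, 3 and 4. Genes that make or remove ADP-ribose were present, 5 of 6 at 1 FPKM or more, with *Parp1* at 29.7 ± 1.6 FPKM and *Nudt9* at 25.4 ± 1.6 (SD, n = 3). *Trpm8*, the cold and menthol receptor, lies on the plus strand at chr1:90174236-90285868, where at most 1.3, 1.1 and 1.6 reads could be hidden.

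The order of the members was therefore *Mcoln3*, *Mcoln1*, *Trpm7*, *Trpm4*, *Trpm1*, *Trpm3* and *Trpm6*, followed by the 3 genes at 0, which cannot be ordered. Each of the 6 neighbouring pairs had the same direction in 3 of 3 replicates and a mean log2 difference above its SD (exact permutation test, p = 0.25 each, 0.25 after Benjamini-Hochberg adjustment over 6 pairs). These pairs were formed by sorting the members on the mean of the same replicates. The direction of the mean difference was thus largely set in advance, and the tests add no support to the order. No exon base of a member was shared with another annotated gene on the same strand. On the opposite strand *Trpm5* shared 3.4% and *Trpm8* 8.2% of its exon bases with another gene, which touches no level here since both were at 0.

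**Figure D2:**
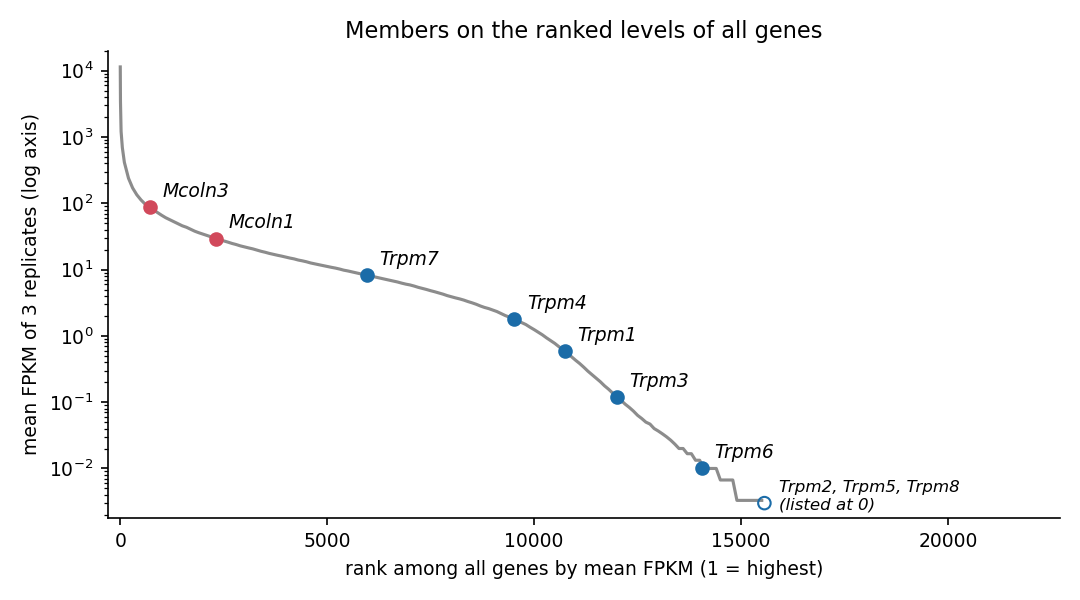
Mean FPKM of 3 replicates (log axis) against rank for all 22698 genes as a grey line, with mucolipins in red and TRPM genes in blue. *Mcoln3* and *Mcoln1* sit at ranks 713 and 2315, *Trpm7* at 5963, and *Trpm4* to *Trpm6* on the falling end of the curve. The open symbol marks the 3 members listed at 0, among the 7135 genes at 0 in all replicates.

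Set among 20 other TRP and endolysosomal channels, 30 genes in all, the members held both ends. *Mcoln3* led in every replicate and took 36.6% of the summed mean FPKM. *Trpv2*, a vanilloid family channel, came next with 54.25, 63.75 and 47.15 FPKM, and *Mcoln3* exceeded it by 1.67, 1.18 and 2.01 times. *Tpcn1*, which encodes an endolysosomal sodium and calcium channel, was just above *Mcoln1*, and in replicate 4 they were nearly equal at 27.24 and 27.14 FPKM. *Tpcn2*, the relative found on melanosomes and tied to pigmentation, had 4.08, 4.7 and 5.24 FPKM, so that *Mcoln3* was 18.8 ± 3.2 times higher (SD, n = 3). Of the other 20 channels, 7 were at 1 FPKM or more in all replicates and 6 were listed at 0.

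The place of *Mcoln3* and *Mcoln1* in this order was the same in all replicates, but that of the TRPM genes moved in replicate 4. There *Trpm7* passed *Trpv4*, which had 8.8, 9.76 and 7.08 FPKM, and stood at place 5 in place of 6. *Trpm4* stood at place 11 in place of 9, below *Trpc2* and *Mcoln2*. *Trpm1* was 1 place lower, below *Trpc1*, and *Trpm3* likewise, below *Trpc6*.

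**Figure D3:**
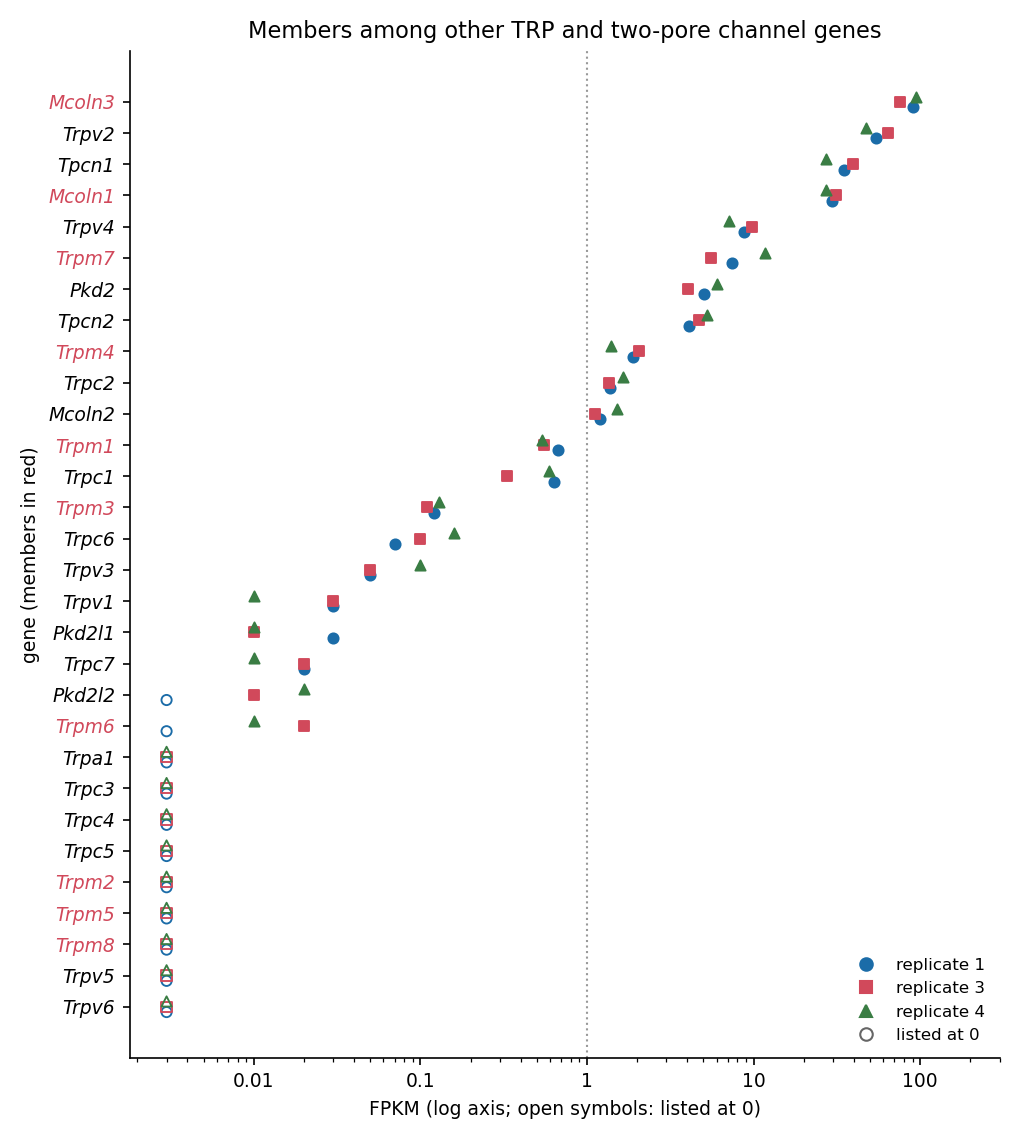
FPKM in each replicate (log axis) for the 10 members in red and 20 other channel genes in black, ordered by mean, with a dotted line at 1 FPKM and open symbols for values listed at 0. *Mcoln3* is highest in each replicate, while the triangles of replicate 4 fall out of line for *Trpm7* to the right and for *Trpm4* to the left.

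The replicates differed in a way that followed GC content, and the members lie across its range. *Trpm7* has exons of 38.7% GC, with only 1.8% of the 10007 annotated genes at 1 FPKM or more below it, and *Trpm4* has 57.4%. The log2 ratio of replicate 4 to replicate 3 in FPKM + 0.1 was 1.06 for *Trpm7* and -0.52 for *Trpm4*. Among 238 genes within 1 percentage point of the GC content of *Trpm7* the median of that ratio was 0.63, with the 5th to 95th percentile from 0.12 to 1.41. Among 799 genes like *Trpm4* it was -0.4, from -0.71 to 0.05. *Mcoln3* at 46.2% GC had a ratio of 0.33 beside a median of 0.22, and *Mcoln1* at 54.6% had -0.2 beside -0.28. All 6 members above 0 in every replicate lay within the range of genes of their GC content. That range came from genes at 1 FPKM or more in all replicates, a level that *Trpm1* and *Trpm3* did not reach. For *Trpm3*, with a mean of 0.12 FPKM, the pseudocount of 0.1 also shrinks the ratio.

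After each replicate was corrected for its trend with GC content, *Trpm7* had 7.32, 6.99 and 9.51 FPKM and its coefficient of variation went from 38.4% to 17.2%. Before correction 97.9% of the 10007 annotated genes at 1 FPKM or more in all replicates varied less than *Trpm7*, around a median coefficient of 11.4%. This share and median were not computed after correction, so the 17.2% has no such background. Replicate 4 of *Trpm7* was still 1.36 times replicate 3 after correction. The coefficient of *Trpm4* went from 19.0% to 6.0%, that of *Mcoln3* from 11.8% to 6.0% and that of *Mcoln1* from 6.8% to 2.9%. For *Trpm1* it was 12.3% before and 13.1% after. The means hardly moved, with 7.94 ± 1.4 FPKM for *Trpm7* and 86.7 ± 5.2 FPKM for *Mcoln3* (SD, n = 3). The correction largely ensures this, because it sets each replicate against the mean of all replicates. A GC effect shared by all libraries would not be seen. What in the libraries the trend comes from was not tested.

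**Figure D4:**
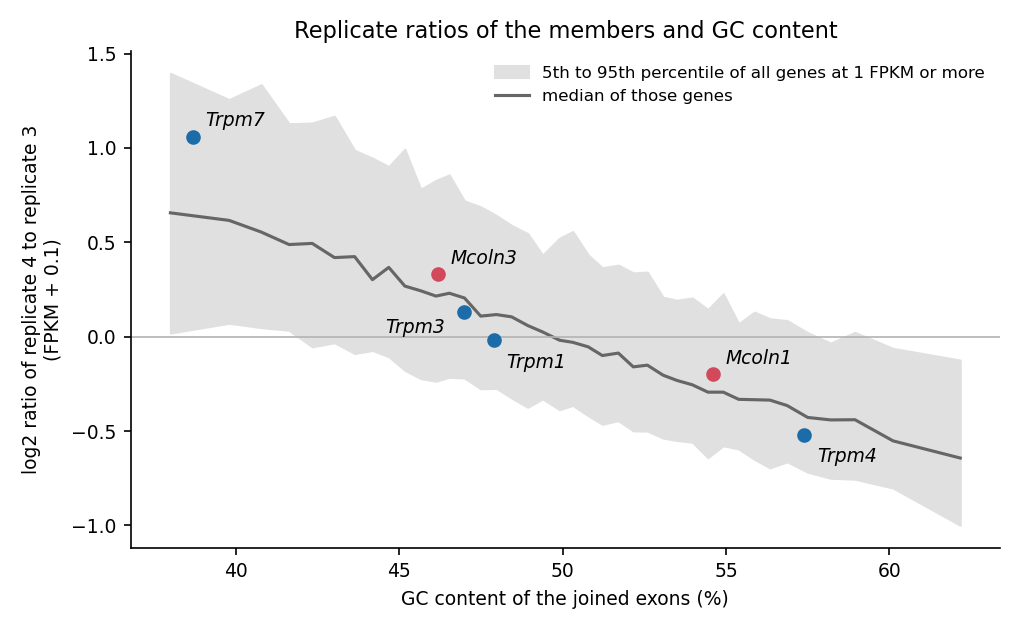
Log2 ratio of replicate 4 to replicate 3 (FPKM + 0.1) against the GC content of the joined exons, with the median of all genes at 1 FPKM or more as a line, their 5th to 95th percentile in grey, and the 6 members above 0 in every replicate as points (mucolipins red, TRPM blue). *Trpm7* at the GC-poor end has a ratio of 1.06 and *Trpm4* at the GC-rich end -0.52, both inside the grey band.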

How the data were processed

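RNA-seq of 3 melan-a replicates was analysed, 1 file each. Per the labels and the study's methods, stranded mRNA libraries were sequenced on 3 lanes per replicate, reads were trimmed at the 5′ end, aligned to mm9 with STAR 2.3.0e, cleared of rRNA and counted on Ensembl genes with HTSeq 0.5.3p3. The authors deposited FPKM with TMM scaling, rounded to 2 decimals. How gene length entered and which strand setting was used is not given in the sources used here. No raw counts were used, so no count model was applied.

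Symbols, exons and GC content came from the GENCODE annotation of NCBIM37 (mm9), which holds 22324 of the 22698 genes. Depth, here the scaled library size, was estimated from whole reads in genes with 1 transcript of at most 1000 bases. Reads of a member are FPKM times joined exon length times depth. Intervals were not computed, as the reads are rebuilt and not independent molecules. Genes of a library were compared by log2(FPKM + 0.1), with exact sign-flip permutation tests and Benjamini-Hochberg adjustment. GC correction removed the median trend over 40 bins. The scripts were tested on simulated data. Promoter and microRNA sequences were those of RefSeq. *Tfap2a* and *Tfap2b* were matched through older symbols, and *Lrit3* was not matched. Some genes of the context and marker lists are not reported here.

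All 10 members were named, with context and marker lists given by counts and by the genes the text turns on, and for *Mcoln3*, *Trpm7* and *Trpm1* the 3 genes of most similar values. The members and lists were chosen with earlier results of these data known. Alternatives were each replicate left out, the median, rescaled totals, the longest transcript, GC correction, other thresholds, a pseudocount of 1 and other ranked sets. Python 3.11.15 was used with numpy 2.4.6, pandas 2.3.3 and matplotlib 3.10.9.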

Additional observations from a re-analysis of the deposited data

How the results depend on the processing

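The order of the 7 members above 0 held in 6 of 6 neighbouring pairs under every alternative tried, and 48 of 48 values of the pairs of relatives kept their direction. The neighbouring pairs had been ordered by the means of these same replicates, so the alternatives are no independent check of that order. Of 221 alternative values in all, 193 were called the same, 28 moved and 0 reversed. Levels and ranks were called the same within the SD between replicates, and counts within a tolerance. GC correction keeps the mean of a gene nearly fixed, so under it levels could hardly move. The 48 pair values only had to keep their direction, whatever their size, and a reversal could be called for them alone. Levels moved after rescaling every replicate to a common total, which changes the unit (*Mcoln3* 232, *Mcoln1* 77.6, *Trpm7* 22.2, *Trpm4* 4.7, *Trpm1* 1.56, *Trpm3* 0.319 and *Trpm6* 0.0262), or with the longest transcript as length (*Mcoln3* 101, *Mcoln1* 42.2, *Trpm7* 13.1, *Trpm1* 1.17 and *Trpm3* 0.147 FPKM). Ranks moved with the longest transcript for *Trpm1* (10223), *Mcoln1* (2015) and *Trpm3* (11935), and otherwise with the median over replicates or a replicate left out, for *Trpm3* (11950) and the genes tied at 0. The number of members at 1 FPKM or more was 4, and 5 with rescaled totals and with the longest transcript, where *Trpm1* was added. A threshold of 0.5 FPKM also gave 5, and 3 reads gave 6. With a pseudocount of 1 the log2 difference between *Trpm7* and *Trpm6* went from 6.18 to 3.14 and that between *Trpm4* and *Trpm5* from 4.22 to 1.47, since *Trpm6* and *Trpm5* are at or near 0. That between *Trpm1* and *Trpm3*, both under 1 FPKM, went from 1.64 to 0.5. With 1 replicate left out, the mean of *Trpm7* ranged from 6.5 to 9.59 FPKM, that of *Mcoln3* from 83.0 to 92.8, that of *Mcoln1* from 28.4 to 30.4, that of *Trpm4* from 1.65 to 1.97 and that of *Trpm1* from 0.545 to 0.61. The depth limits *Trpm6* and the 3 genes at 0, for which an absence of transcript cannot be told from a few reads. No paired analysis was possible because the data hold 1 group, so there were no groups to pair by replicate number, and the pairing used above is of genes within a library.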

Other observations

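Genes with nearly the same values as a member in all 3 replicates were looked up by the distance of their log2(FPKM + 0.1) values, which describes 3 libraries and says nothing of function. The nearest to *Trpm7* were *Dmxl2*, a regulator of the vacuolar proton pump, at 0.014, with 7.4, 5.55 and 11.83 FPKM, *Rbm6* at 0.09 and *Naa15* at 0.112, and 15 genes lay within 0.2. The nearest to *Mcoln3* were *Glrb* at 0.064, *Nars* at 0.068 and *Nrcam* at 0.079, of 17 genes within 0.2. *Trpm1* had *Vopp1* and *Peli3* at 0.092 and *8430419L09Rik* at 0.097, of 19 genes within 0.2.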
